A study of Mus musculus with 8 samples.

Results

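The genes that encode axon guidance ligands and their receptors were examined for CTCF binding in mouse cortical neurons with and without NMDA stimulation. Members were protein-coding genes whose symbols belong to the semaphorin, ephrin, Slit and netrin ligand families or to the plexin, neuropilin, Eph, Robo, Unc5 and Dcc receptor families. They numbered 70 of 21887 protein-coding genes on the assembled chromosomes, 37 ligand and 33 receptor genes in 12 families. A CTCF region was assigned to a gene when its summit lay in the gene span or within 10 kb of it. This gave 238 of 36186 regions in the NMDA list and 236 of 33815 in the control list.

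CTCF chromatin immunoprecipitation and sequencing (ChIP-seq) was done on primary cortical neurons taken from wild-type Swiss-Webster embryos on embryonic day 16 and kept for 13 days in vitro. NMDA cultures received 50 µM NMDA, a glutamate receptor agonist, for 10 minutes and recovered for 50 minutes in medium without it. Control cultures have no treatment in the labels. Etoposide is named in the common growth protocol too, but no label gives it as a treatment. There were 2 ChIP replicates and 2 input libraries per condition. The authors built 1 list of reproducible regions per condition over both replicates. No difference between conditions could therefore be tested against replicate spread, the intervals given here are 95% Wilson intervals that cover counting error only, and sequencing depth is unknown. The cultures hold dissociated cortical cells, the cell types behind a region cannot be told apart, and these ChIP data hold no marker levels to check the cells against.

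Axon guidance cues attract or repel the growth cone of an extending axon. Semaphorins signal through plexins, for the secreted class 3 members together with neuropilins. Ephrins signal through Eph receptor tyrosine kinases, Slits through Robo receptors, and secreted netrins through Dcc and Unc5 receptors. Many of these families remain in use in mature cortex, where they act in dendritic spine and synapse remodelling. The zinc finger protein CTCF recognises a long DNA motif and, together with cohesin, anchors loops of chromatin.

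Nearly all of the genes had CTCF nearby. A region lay in the window of 68 of 70 genes in the NMDA list, against 67.4% of all protein-coding genes. In the control list it was also 68 of 70, against 66.2% of all. The 2 genes with no region in either list were Epha2, an Eph receptor gene (chromosome 4, 141301221 to 141329384, mm10), and Plxna3, a plexin gene (chromosome X, 74328290 to 74344689). The median gene had 3 regions in either list, where the median over all protein-coding genes was 1. The spans of the 70 genes ran from 4.64 to 1555 kb with a median of 49.8 kb, and that of all genes was 17.2 kb, so these counts are not matched for length. The number of regions was equal in both lists at 38 genes, higher in the NMDA list at 18 and lower there at 14.

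Per length of DNA, short guidance genes held more regions and the longest held fewer. Density is given as regions per 100 kb of window, pooled over a length class with overlapping windows merged. The 21 genes under 20 kb had 6.71 regions per 100 kb in the NMDA list, where all genes of that class had 3.57. The 17 genes of 20 to 100 kb had 6.20, where all had 2.86. The 16 genes of 100 to 300 kb had 2.15, where all had 1.79. The 16 genes over 300 kb had 0.692, where all had 0.929. In the control list guidance genes were again above all genes in the first 3 classes and below them in the last, with 6.25, 6.30, 2.11 and 0.702 at guidance genes and 3.34, 2.67, 1.67 and 0.874 at all genes, shortest class to longest. Within the spans alone, where flanks do not count, genes under 20 kb had 6.84 and all genes of that class 4.34 in the NMDA list. In the class under 20 kb the median span was 12.5 kb for guidance genes and 6.33 kb for all genes, so that class is not closely matched for length. These densities are a description, and whether they differ from those of other genes was not tested.

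**Figure D1:**
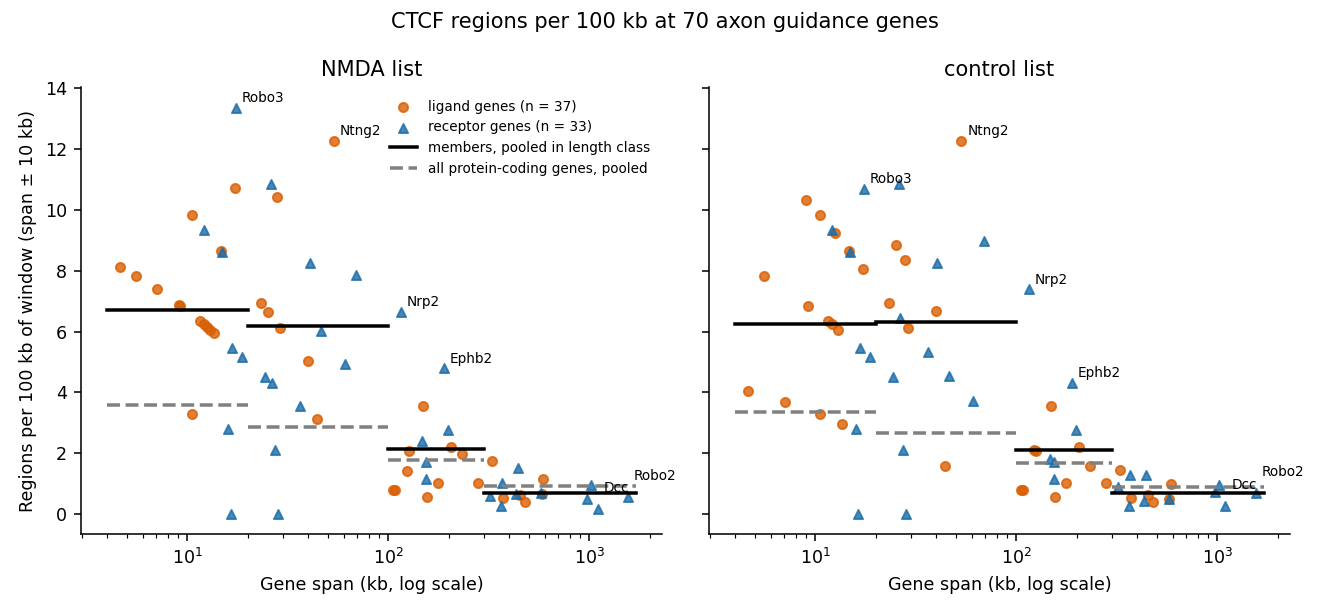
CTCF regions per 100 kb of window (vertical axis) against gene span in kb (log axis) for the 37 ligand genes (circles) and 33 receptor genes (triangles), with the NMDA list on the left and the control list on the right. Solid lines are densities pooled over guidance genes of a length class and dashed lines those of all protein-coding genes; in the NMDA list the solid line is above the dashed one under 20 kb (6.71 and 3.57) and below it over 300 kb (0.692 and 0.929).

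The 5 genes with the most regions per 100 kb in the NMDA list were of short or middle length. Robo3, which encodes a divergent Robo receptor needed for midline crossing (chromosome 9, 37416045 to 37433436), had 5 regions in the NMDA list and 4 in the control list, or 13.4 and 10.7 per 100 kb. Ntng2, which encodes netrin-G2, a membrane-anchored netrin relative (chromosome 2, 29194726 to 29248099), had 9 regions in each list, or 12.3 per 100 kb. Plxnb1, a receptor gene for the class 4 semaphorin Sema4D, had 5 in each list. Sema6b, a transmembrane semaphorin gene, had 4 NMDA and 3 control regions, and Sema4f 5 NMDA and 4 control regions. Inside the spans alone, the NMDA regions numbered 3 at Robo3, 6 at Ntng2, 1 at Plxnb1, 3 at Sema6b and 3 at Sema4f. The others lay in the 10 kb flanks, so these densities rest in part on the flanks. At Robo3, 2 of the 5 NMDA regions lay inside its neighbour Robo4. At the other extreme, named after their values were seen, Dcc had 2 NMDA and 3 control regions over 1118 kb of window, Epha5 had 1 in each list over 383 kb and Sema3a had 2 in each over 499 kb. Of the NMDA regions, 3 lay in the windows of 2 members. All 3 were at the neighbours Robo3 and Robo4, so each Robo4 region was also counted for Robo3. Besides, 15 NMDA regions also lay inside a protein-coding gene that is not a member.

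Gene starts were bound at many of the genes. Strand was known for the 60 members with a RefSeq promoter entry, and at 27 of these a summit lay within 1 kb of the start of the span in the NMDA list. That is 45.0%, against 24.8% of all protein-coding genes with a strand. The control list also gave 27 of 60, against 24.3% of all. Counting any annotated start of a gene, a summit lay within 1 kb of one at 31 members in the NMDA list and 33 in the control list. The strongest region at a start in the NMDA list was that of Ephb1, an Eph receptor gene, with a −log10 p of 435 (chromosome 9, 102352942 to 102355695). Its control counterpart had 568. Sema3d, a secreted semaphorin gene, followed with 427 in the NMDA list and 1250.5 in the control list (chromosome 5, 12382856 to 12384675). The others among the strongest 6 were Sema5b (394 in NMDA, 949 in control), the ephrin gene Efnb2 (374 in NMDA, 950.3 in control), the plexin gene Plxnc1 (365 in NMDA, 1045 in control) and Ephb3 (294 in NMDA, 432 in control). These values are the authors' sums over 2 replicates. They scale with depth and are compared only within a list, where all 6 ranked between the percentiles 87.0 and 94.7 in the NMDA list and 86.2 and 99.0 in the control list (100 being the strongest region).

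In a few promoters the summit itself fell in the annotated promoter window, taken as 250 bases before to 50 after an annotated start. Of 76 such windows of members, 7 held an NMDA summit and 10 a control summit. The 250 bases before the start are shown for the 4 with the strongest NMDA regions, because their windows hold the summit. They are from RefSeq (GRCm38.p6, the assembly of mm10), at chr9:102354694-102354943 on the minus strand for Ephb1, chr16:35541112-35541361 on the plus strand for Sema5b, chr6:42373269-42373518 on the minus strand for Epha1 and chr3:141465314-141465563 on the plus strand for Unc5c. Epha1, named here like Unc5c by the strength of its region, encodes an Eph receptor, and Unc5c a netrin receptor.
Ephb1: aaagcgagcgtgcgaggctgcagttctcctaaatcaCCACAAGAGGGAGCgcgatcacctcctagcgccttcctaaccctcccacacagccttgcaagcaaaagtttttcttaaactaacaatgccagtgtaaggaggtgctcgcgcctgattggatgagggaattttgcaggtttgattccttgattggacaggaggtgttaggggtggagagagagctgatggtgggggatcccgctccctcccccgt
Sema5b: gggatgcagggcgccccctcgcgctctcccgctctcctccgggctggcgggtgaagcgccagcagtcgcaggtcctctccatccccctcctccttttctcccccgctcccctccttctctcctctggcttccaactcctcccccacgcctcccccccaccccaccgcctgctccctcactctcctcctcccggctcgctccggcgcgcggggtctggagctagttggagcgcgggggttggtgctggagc
Epha1: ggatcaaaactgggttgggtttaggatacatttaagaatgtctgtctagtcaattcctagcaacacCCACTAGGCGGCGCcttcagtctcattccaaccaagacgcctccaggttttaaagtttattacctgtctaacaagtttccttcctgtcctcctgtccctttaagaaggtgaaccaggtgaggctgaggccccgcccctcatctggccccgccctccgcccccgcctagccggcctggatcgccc
Unc5c: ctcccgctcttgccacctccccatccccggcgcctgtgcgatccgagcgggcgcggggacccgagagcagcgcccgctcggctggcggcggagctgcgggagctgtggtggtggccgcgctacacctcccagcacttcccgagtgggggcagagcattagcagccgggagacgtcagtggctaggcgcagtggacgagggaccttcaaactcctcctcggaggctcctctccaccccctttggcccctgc
Capitals mark matches to the CTCF core. The short core was CC, any 3 letters, AG, any 2 letters, GGC. The longer core was CCA, any 2 letters, AG, any 2 letters, GGCGC, with at most 1 mismatch. They overlap each other and were searched on both strands. In Epha1 both matched at −184 from the start, with summits at −150 in the NMDA list and −98 in the control list. In Ephb1 only the longer pattern matched, at −214, with summits at −199 in the NMDA list and −209 in the control list. Neither pattern was found in the windows of Sema5b and Unc5c, but looser forms of the CTCF motif were not searched. The short core was in 8 of 76 member windows, or 10.5%, where 9.88% of all 21263 protein-coding windows held it. The longer one was in 5 of 76, or 6.58%, where 5.49% of all did. Among windows that held an NMDA summit, the short core was in 2 of 7 for members and in 33.9% of 1660 for all genes. The longer core was in 3 of these 7 and in 27.9% of the 1660. The median GC content was 64.2% in member windows and 56.3% in all of them.

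Most regions at guidance genes lay inside them. Over the 60 genes with a strand, 58.3% (51.4 to 64.8) of region-gene pairs in the NMDA list were inside the span and over 1 kb from either end, where 44.8% (44.2 to 45.3) were for all protein-coding genes. In the control list these shares were 58.0% (51.2 to 64.5) and 44.2%. Starts held 13.1% (9.17 to 18.4) of pairs in the NMDA list, where 15.3% did for all genes. The 3′ ends held 2.91%, the 10 kb upstream 13.6% and the 10 kb downstream 12.1%, where all genes had 3.94%, 16.2% and 19.7%. Longer genes hold more of their window inside the span. Regions at further annotated starts within a span were counted as inside. Inside positions made up 54.3% of NMDA pairs at ligand genes and 61.6% at receptor genes. The 10 members without a strand had 35 NMDA pairs, 9 of them within 1 kb of an end.

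**Figure D2:**
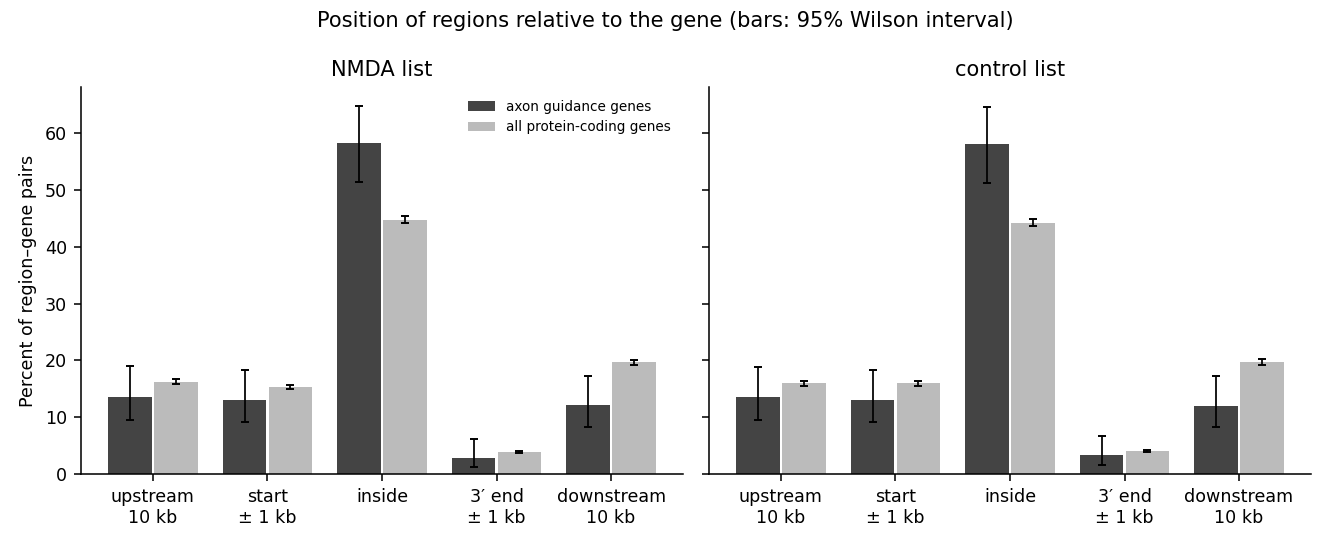
Percent of region-gene pairs (vertical axis) by position relative to the gene, for axon guidance genes (dark) and all protein-coding genes (light), with the NMDA list on the left and the control list on the right and bars for 95% Wilson intervals. Inside positions made up 58.3% of pairs at guidance genes in the NMDA list and 44.8% at all genes.

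The great majority of the regions were found in both conditions. Regions sharing 1 bp or more with a region of the opposite condition were called shared. Of the 238 NMDA regions at guidance genes, 21 were NMDA-only, or 8.82% (5.84 to 13.1), where 15.5% of all NMDA regions were and 15.4% of those in windows of all protein-coding genes. Of the 236 control regions, 23 were control-only, or 9.75% (6.58 to 14.2), where 9.22% of all control regions were and 9.51% of those in windows of all genes. Counted as genes, 18 of 70 had an NMDA-only region, where 20.6% of all genes did. A control-only region lay at 20 of 70, where 12.8% of all genes had one. These genes held more regions each than other genes did, so the counts of genes are not matched for that. By role, NMDA-only regions made up 8.93% (4.92 to 15.7) at ligand genes and 8.73% (4.94 to 15.0) at receptor genes of the NMDA list. Control-only regions were 7 of 107, or 6.54% (3.20 to 12.9), at ligand genes of the control list. At receptor genes they were 16 of 129, or 12.4% (7.78 to 19.2). These intervals overlap, and a difference by role was not tested. Both kinds of list-only region occurred at 8 genes and at least 1 kind at 30.

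**Figure D3:**
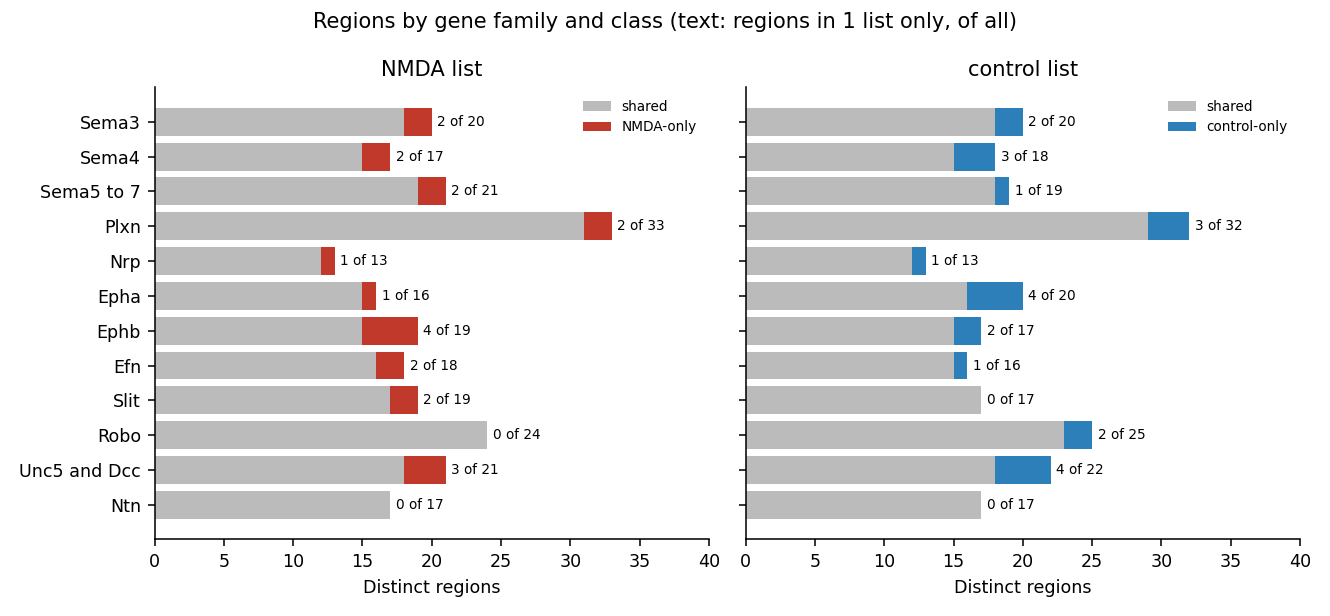
Number of distinct regions (horizontal axis) by gene family, with the NMDA list on the left and the control list on the right. Grey is shared, colour is found in that list alone, and the text gives the list-only count of all. Robo genes had 0 of 24 NMDA-only regions and 2 of 25 control-only regions, where 15.5% and 9.22% of the whole lists were list-only.

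List-only regions were weak and narrow. The −log10 p of the 21 NMDA-only regions ran from 18.7 to 43.4 with a median of 23.1, and none ranked above the percentile 26.9 of its list. Their median width was 673 bp, where shared NMDA regions at these genes had 1329 bp. The 23 control-only regions ran from 33.2 to 117 with a median of 45.2, and none ranked above 37.6. Among NMDA regions under the percentile 25 of the list, 20 of 52 at guidance genes were NMDA-only, or 38.5% (26.5 to 52.0), where 50.1% were in the whole list. In the control list it was 21 of 56, or 37.5% (26 to 50.6), where 31.9% were in the whole list. Between the percentiles 25 and 50, 1 of 58 NMDA regions was NMDA-only, or 1.72% (0.305 to 9.14), where 11.1% were in the whole list. Of the control regions there, 2 of 54 were control-only, or 3.70% (1.02 to 12.5), where 4.71% were in the whole list. Above the percentile 50 no region at a guidance gene was list-only, among 62 NMDA and 54 control regions up to the percentile 75 and 66 NMDA and 72 control regions beyond it. Such regions were rare in the whole lists too, at 0.906% of NMDA and 0.308% of control regions between the percentiles 50 and 75, and 0.0111% of NMDA and 0% of control regions beyond.

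The strongest NMDA-only region lay 3′ of Nrp1, a neuropilin gene (chromosome 8, 128510752 to 128511757). Its −log10 p of 43.4 was made up of 13.2 in the first replicate column of the NMDA list and 30.3 in the second. In Epha10, a receptor gene of the Eph family, an NMDA-only region lay inside the gene (chromosome 4, 124905126 to 124906269) with 11.05 and 24.5 in these columns, 35.6 in all. Epha10 also had 2 control-only regions, at its start (124881278 to 124882073, −log10 p 44.0) and downstream (124919831 to 124920708, 47.8). Slit3 had an NMDA-only region inside the gene (chromosome 11, 35703408 to 35703944, 34.8), and Slit2 likewise (chromosome 5, 48113089 to 48114004, 34.4). Those of the netrin receptor gene Unc5d (chromosome 8, 28978637 to 28979055) and of the transmembrane semaphorin gene Sema6d (chromosome 2, 124099476 to 124100321) had 32.0 and 29.1. The Sema6d region lay 152 bp from a control region, and the other 5 were over 5 kb from any. The replicate columns were 12.1 and 22.7 for Slit3 and 10.9 and 23.5 for Slit2. The first column was the higher one in 2 of the 21 NMDA-only regions and 49 of the 217 shared ones, where it was in 7468 of all 36186 NMDA regions. The list medians of the first and second columns were 32.1 and 56.1.

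The strongest control-only region lay inside Nrp2, the other neuropilin gene (chromosome 1, 62783068 to 62783971), with a −log10 p of 117 and 748 bp from an NMDA region. Sema5b followed inside the gene (chromosome 16, 35593314 to 35594169, 86.9). A control-only region downstream of Unc5a (chromosome 13, 55013264 to 55014429, 73.3) lay inside its neighbour Hk3 and 543 bp from an NMDA region. Unc5c had one upstream (chromosome 3, 141462258 to 141462981, 71.9), Robo2 one inside (chromosome 16, 74839827 to 74840837, 70.3) and Epha3 one at its start (chromosome 16, 63863413 to 63864531, 58.7). The control list has no replicate columns, so these values could not be split by replicate.

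In the NMDA list 2 of 27 start regions were NMDA-only, at the semaphorin gene Sema4f (chromosome 6, 82939392 to 82939778, −log10 p 25.7) and at the ephrin gene Efna4 (chromosome 3, 89337391 to 89338363, 19.1). In the control list 4 of 27 were control-only, at Epha3, at Epha10, at Ephb4 (chromosome 5, 137349317 to 137350731, 43.1) and at the secreted semaphorin gene Sema3g (chromosome 14, 31217411 to 31218121, 42.8). Over all genes, 14.7% of NMDA start regions were NMDA-only and 12.5% of control start regions control-only. Efna4, Ephb4 and Sema3g were named after their values were seen.

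Regions at guidance genes ranked close to the middle of their lists. The median percentile was 55.6 in the NMDA list (order-statistic interval 48.2 to 61.1) and 55.9 in the control list (46.1 to 62.6), where all regions have 50. Within the spans alone, with no flank, the medians were 49.0 in the NMDA list and 46.9 in the control list. Ligand genes had a median of 61.1 and receptor genes of 48.7 in the NMDA list, and 64.6 and 46.4 in the control list. The highest family median was that of the ephrins, with 86.8 in the NMDA list and 82.7 in the control list, and plexins had the lowest in the NMDA list with 35, against 40.2 in the control list. Ephrin genes had a median span of 9.88 kb. Only 5 of their 18 NMDA and 5 of their 16 control regions had the summit inside a span, and the others lay in the flanks. Families have 2 to 9 genes, and regions of 1 gene share its surroundings. The order of the families was not tested.

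**Figure D4:**
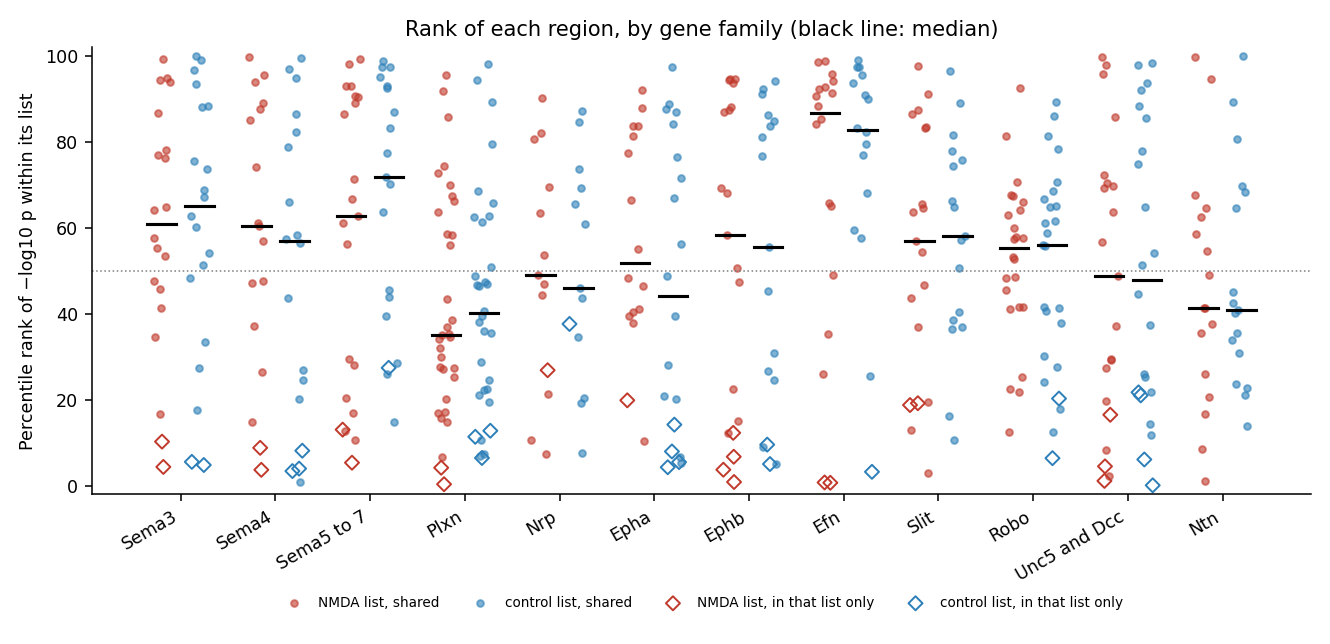
Percentile rank of each region's −log10 p within its own list (vertical axis, 100 the strongest) by gene family, NMDA list in red on the left and control list in blue on the right of each pair. Filled points are shared regions, open diamonds regions found in 1 list, and black lines medians, which for the ephrins are 86.8 in the NMDA list and 82.7 in the control list.

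Among the ligands, class 3 semaphorins had 20 regions in each list. The strongest lay beside Sema3b (chromosome 9, 107611086 to 107613936), with a −log10 p of 788 in the NMDA list and 2055 in the control list, at the percentiles 99.2 and 99.9. It lay 1.26 kb from an end of the G protein gene Gnai2. Sema3d had 5 in each list, with 1 at its start and 4 inside, and Sema3e, another secreted semaphorin gene, had 5 NMDA and 4 control regions. Class 4 semaphorins, which are membrane proteins, had 17 NMDA and 18 control regions. Their strongest was inside Sema4c (chromosome 1, 36555915 to 36559011), with 993 in the NMDA list and 1501 in the control list, at the percentiles 99.8 and 99.5. It covered promoter windows of annotated Sema4c starts within the span. Among classes 5 to 7, with 21 NMDA and 19 control regions, it was inside Sema6b (chromosome 17, 56130844 to 56136023), with 786 in the NMDA list and 1235 in the control list. That region was 5180 bp wide and covered the promoter window of an annotated Sema6b start within the span.

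Ephrin genes had 18 NMDA and 16 control regions. The strongest lay upstream of Efna5 (chromosome 17, 62883322 to 62885137), with a −log10 p of 711 in the NMDA list and 1313 in the control list. A weaker one lay at the start of Efna5, with 42.2 in NMDA and 82.1 in control, and another lay inside the gene, with 387 in NMDA and 381 in control. In the NMDA list the upstream region was at the percentile 98.8, the start region at 25.9 and the inner region at 92.8. Slit genes, which encode large secreted repellents, had 19 NMDA and 17 control regions, and 6 of the 7 NMDA regions of Slit3 were shared. The strongest lay inside Slit3, 330 kb from the start (chromosome 11, 35451086 to 35452894), with 582 in the NMDA list and 808 in the control list. Netrin genes had 17 regions in each list, 9 of them at Ntng2, and 0 list-only regions (interval 0 to 18.4% in each list). Over the whole lists, 15.5% of NMDA regions were NMDA-only and 9.22% of control regions control-only. The strongest region of all 238 lay at the 3′ end of Ntng2 (chromosome 2, 29193898 to 29195383), with 1080.4 in the NMDA list, of which 432 in the first and 648 in the second replicate column. The control list had 2005 there.

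Among the receptors, plexin genes had 33 NMDA and 32 control regions. Plxna4, which with neuropilins receives class 3 semaphorins, had the most in the NMDA list, with 7 NMDA and 6 control regions, and its strongest (chromosome 6, 32327255 to 32328975) had a −log10 p of 465 in the NMDA list and 664 in the control list. Nrp2, which binds semaphorin 3F, had 9 NMDA and 10 control regions, with the strongest inside the gene (chromosome 1, 62784720 to 62787137, 337 in NMDA and 408 in control). Nrp1, which binds semaphorin 3A, had 4 NMDA and 3 control regions. Genes of the A class of Eph receptors had 16 NMDA and 20 control regions over the 8 examined. Epha6 had 5 NMDA and 7 control regions. Epha3 had 2 NMDA and 3 control regions, with a strongest value of 372 in NMDA and 946 in control inside the gene (chromosome 16, 63856258 to 63857932). Genes of the B class had 19 NMDA and 17 control regions over 5 genes, of which Ephb2 held 10 NMDA and 9 control regions (chromosome 4, 136647536 to 136836326). The −log10 p of the 10 Ephb2 regions in the NMDA list ran from 24.1 to 435.

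Robo genes had 24 NMDA and 25 control regions, and none of the 24 was NMDA-only. Robo1 had 10 in each list, spread over 1020.0 kb of span, with −log10 p from 68.2 to 239 in the NMDA list. Robo2 had 9 in the NMDA list, all shared, and 11 in the control list, of which 2 were control-only. The strongest of the family lay inside Robo3 (chromosome 9, 37429211 to 37431404, 379 in the NMDA list and 486 in the control list). Unc5 and Dcc genes had 21 NMDA and 22 control regions. Unc5b, a netrin receptor gene (chromosome 10, 60762594 to 60831581), had 7 NMDA and 8 control regions. The strongest lay 3′ of the gene (60759401 to 60762149, 905 in NMDA and 1092 in control), and another lay upstream (60834176 to 60836236, 608 in NMDA and 1013 in control).

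**Figure D5:**
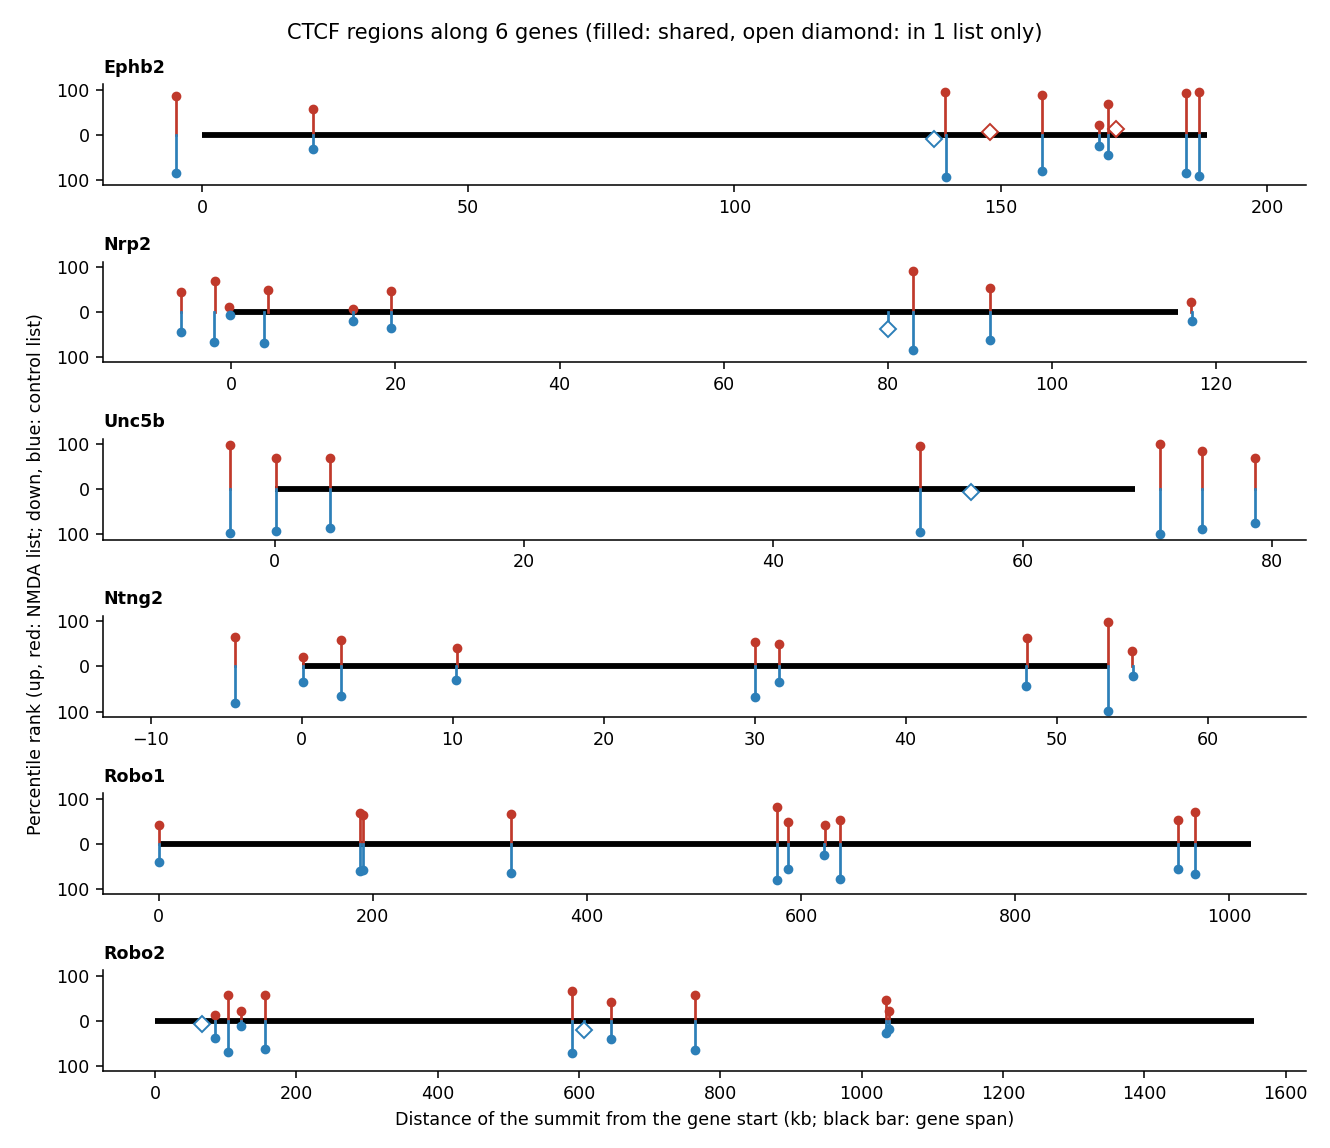
Summits of CTCF regions along Ephb2, Nrp2, Unc5b, Ntng2, Robo1 and Robo2, by distance from the gene start in kb (horizontal axis, black bar for the span). Height is the percentile rank within the list, upward in red for the NMDA list and downward in blue for the control list; filled points are shared and open diamonds are in 1 list only, such as the 2 control-only regions of Robo2.

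Long guidance genes held wide stretches without any region. Dcc, which encodes a netrin receptor (chromosome 18, 71253613 to 72351228), had 776 kb without a summit, 70.7% of its span, in both lists. In Epha6 the longest such stretch was 589 kb, in Robo2 517 kb and in Sema6d 504 kb in both lists. In Epha5, 99.8% of the span had none, and the 1 region lay at its start with −log10 p of 26.8 in the NMDA list and 43.3 in the control list. Dcc and Epha5 were named after their values were seen.

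Where regions were shared, their summits lay close together. The median distance between the NMDA summit and the nearest control summit was 19 bp over 217 shared NMDA regions, and 191 of them lay within 100 bp. At 6 genes a control region overlapped 2 NMDA regions, and 2 of the shared NMDA regions overlapped more than 1 control region, at Epha6 and Ntng2. Among the control regions, the one at the start of Efnb2 was 4339 bp wide with a −log10 p of 950.3 in the control list (chromosome 8, 8658164 to 8662502), and the 2 NMDA regions had 264 and 374. The others were at Ntng2, Plxna1, Plxna4, Robo3 and Sema6b. Percentiles of shared regions differed by a median of 6.50 between the lists. The widest gap with the lower rank in the NMDA list was at the start of Efna2, 35.2 in the NMDA list and 68.2 in the control list. The widest with the higher rank in the NMDA list was inside Ephb2, 58.4 in the NMDA list and 30.8 in the control list. The lists differ in length and their depth is unknown, so these ranks show no change in binding.

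Other genes of the pathway, 79 co-receptors, further cues and cytoplasmic signalling proteins taken from textbook knowledge, were counted the same way. A region lay at 76 of them in either list, where 67.4% of all protein-coding genes had one in the NMDA list and 66.2% in the control list. Their median span was 93.3 kb, where that of all genes was 17.2 kb, so these counts are not matched for length. NMDA-only regions were 43 of 313, or 13.7%, where 15.5% of the whole NMDA list was. Control-only regions were 40 of 311, or 12.9%, where 9.22% of the whole control list was. The strongest NMDA regions lay at Enah (chromosome 1, 181887915 to 181889758, −log10 p 914), which promotes actin filament growth, at the actin-severing cofilin gene Cfl1 (chromosome 19, 5486929 to 5490108, 785) and at Lingo1 (chromosome 9, 56635163 to 56639122, 679.9). The strongest NMDA-only regions were at the kinase gene Abl2 (66.9) and the small GTPase gene Rnd1 (53.5), and the strongest control-only regions at Boc (124), a hedgehog co-receptor gene, and Rhoa (101).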

How the data were processed

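The authors deposited 1 region list per condition, whose naming points to an irreproducible discovery rate (IDR) step across 2 replicates. FastQC, Trimmomatic, BWA, SAMtools and MACS2, and the builds mm10 and GRCm38.p6, are named per the submitters' processing notes, while tool versions are not given in the labels. The score that the authors deposited was at least 540 in both lists. The deposited −log10 p-value of column 8 was used as each region's strength. In 36193 of 36193 NMDA rows it equalled the sum of 2 replicate columns within 0.001. Which replicate each holds is not stated. Rows off the assembled chromosomes were left out (7 NMDA, 5 control). A percentile is the rank of a region's −log10 p within its list.

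Gene spans came from RefSeq (GRCm38.p6). Strand and promoter letters came from its promoter table, which held 60 of the 70 genes; exons and introns were not used here. One further gene that fits the name patterns is not reported here. Input libraries were not analysed here. The members and gene lists were chosen with earlier results of these data known. Genes were named by a rule (in each family the most regions and the strongest region, the 6 strongest list-only regions of each list, the 6 strongest at starts, the 5 densest, those with none, and the strongest of the other pathway genes). The longer motif was added after seeing the data. Overlap counting was tested on NMDA regions that were removed or shifted at random. Window assignment was compared with a direct count on NMDA regions, and motif search was tested on simulated sequences. Python 3.11.15, pandas 2.3.3, NumPy 2.4.6 and SciPy 1.17.1 were used. Alternatives tried were the flank, the overlap definition, the score, the list length, the distance from a start and single replicate columns.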

Additional observations from a re-analysis of the deposited data

How the results depend on the processing

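With a flank of 50 kb the genes held 399 NMDA and 388 control regions. The NMDA-only share became 13.8% at a score of at least 830 (18% over the whole list), 14.3% with a reciprocal overlap of 50% (20.4%), 19.7% with summits within 100 bp (21.4%) and 4.46% with the NMDA list shortened to the length of the control list (11.7%). The control-only share became 19.1% with summits within 100 bp (15.9% over the whole list). Within 2.5 kb of a start lay 20.4% of NMDA and 20.3% of control pairs. The other alternatives for these shares, counts, densities and median ranks moved them by less than counting error or by under 1.5 times. Single replicate columns were tried only for the median rank in the NMDA list, 54.1 with the first and 55.1 with the second. With regions extended by 500 bp, chosen after seeing the data, 18 of the 21 regions found in the NMDA list alone and 18 of the 23 in the control list alone stayed so. Those under 1 kb from the other list did not, the Nrp2, Unc5a and Sema6d regions among them. With the NMDA list shortened, 10 of the 21 NMDA-only regions remained and 11 fell out of the list. For the counts of single named genes, a flank of 0 moved 27 of 64 by over 1.5 times, a flank of 50 kb 26 of 64, a score of at least 830 8 of 64 and the shortened NMDA list 1 of 64. At that score Epha10 had 0 control regions, against 3 without it. Ranking by column 7 was not run, since it holds −1 in every row. No paired analysis was possible because each condition has 1 list over both replicates, and leaving out a replicate was not possible for the same reason. The unknown depth limits what can be said of the weak list-only regions.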
